A study of Mus musculus with 2 samples.

Results

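The cAMP signalling genes were 47 of the 55536 annotated genes measured in the mouse adrenal gland. They comprised 4 G protein α subunits, 9 adenylyl cyclases, 2 catalytic and 4 regulatory subunits of protein kinase A (PKA), 3 PKA inhibitors, 1 anchoring protein, 16 phosphodiesterases, 2 EPAC exchange factors, 3 CREB-family factors and 3 CRTC coactivators. The genes were chosen by symbol, and the rule used no measured value, though earlier results of these data were known when it was set. All 47 symbols were found. The tissue was the adrenal gland of female B6CASTF1/J mice, an F1 cross with a CAST parent, at an age of 25 days. The labels name no treatment and no engineered allele, so the 2 libraries, replicate 1 and replicate 2, form 1 group with no other group to set beside it. Each was a total RNA library that kept strand and carried ERCC spike-ins, made from 300 ng of RNA. The labels give the tissue pieces separate animal numbers but share 1 donor entry, so each SD and p rests on differences between these libraries alone, and these may be technical. As the whole gland was sampled, fewer cells of a type and less RNA per cell cannot be told apart.

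In this pathway a receptor coupled to the stimulatory α subunit Gs turns on adenylyl cyclase, which makes cAMP from ATP, while inhibitory α subunits hold cyclases back. cAMP releases the catalytic subunits of PKA from the regulatory subunits, activates the EPAC exchange factors for Rap proteins, and is broken down by phosphodiesterases. In the adrenal cortex this route carries the corticotropin signal from the melanocortin receptor Mc2r to cholesterol transport and steroid synthesis. In humans, changes in GNAS, PRKACA, PRKAR1A, PDE8B and PDE11A are known causes of adrenal overgrowth or cortisol excess.

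Replicate 1 held 19366343 expected counts and replicate 2 held 33728646, and 36.3% and 66.1% of them fell on nuclear protein-coding genes (Lars2 left out). The summed TPM of these genes was 206815 in replicate 1, against 338304 in replicate 2, a difference in scale that enters the SDs of TPM. Values called coding TPM were rescaled to 1000000 over these genes in each library. On that scale the members summed to 5765 in replicate 1 and 5720 in replicate 2. All 6 steroidogenic cortex markers and all 6 chromaffin markers reached 1 TPM in both libraries. The 6 liver markers were all at least 2-fold higher in replicate 1, with a summed TPM of 190 against 3.73, and Gc had 0 counts in replicate 2. Of 6 fat markers, 5 were higher in replicate 1 and Lep was lower, and their summed coding TPM was 3651 in replicate 1 and 2767 in replicate 2.

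Of the 47 genes, 37 reached 1 TPM, the level called detected here, in both libraries, 4 were below it in replicate 1 alone and 6 were below it in both. Among all 22014 nuclear protein-coding genes other than Lars2, 51.5% were detected in both libraries on deposited TPM. On coding TPM, 41 members reached 1 in both libraries, the added 4 being Adcy1, Adcy5, Pkia and Pde4b. The share of all genes on that scale is not given here. The median over the members was 6.95 in replicate 1 and 9.33 in replicate 2, in TPM, beside 1.25 and 2.08 TPM for the median coding gene. The members' median thus lay above that of coding genes in both libraries. Every family held at least 1 detected gene.

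**Figure D1:**
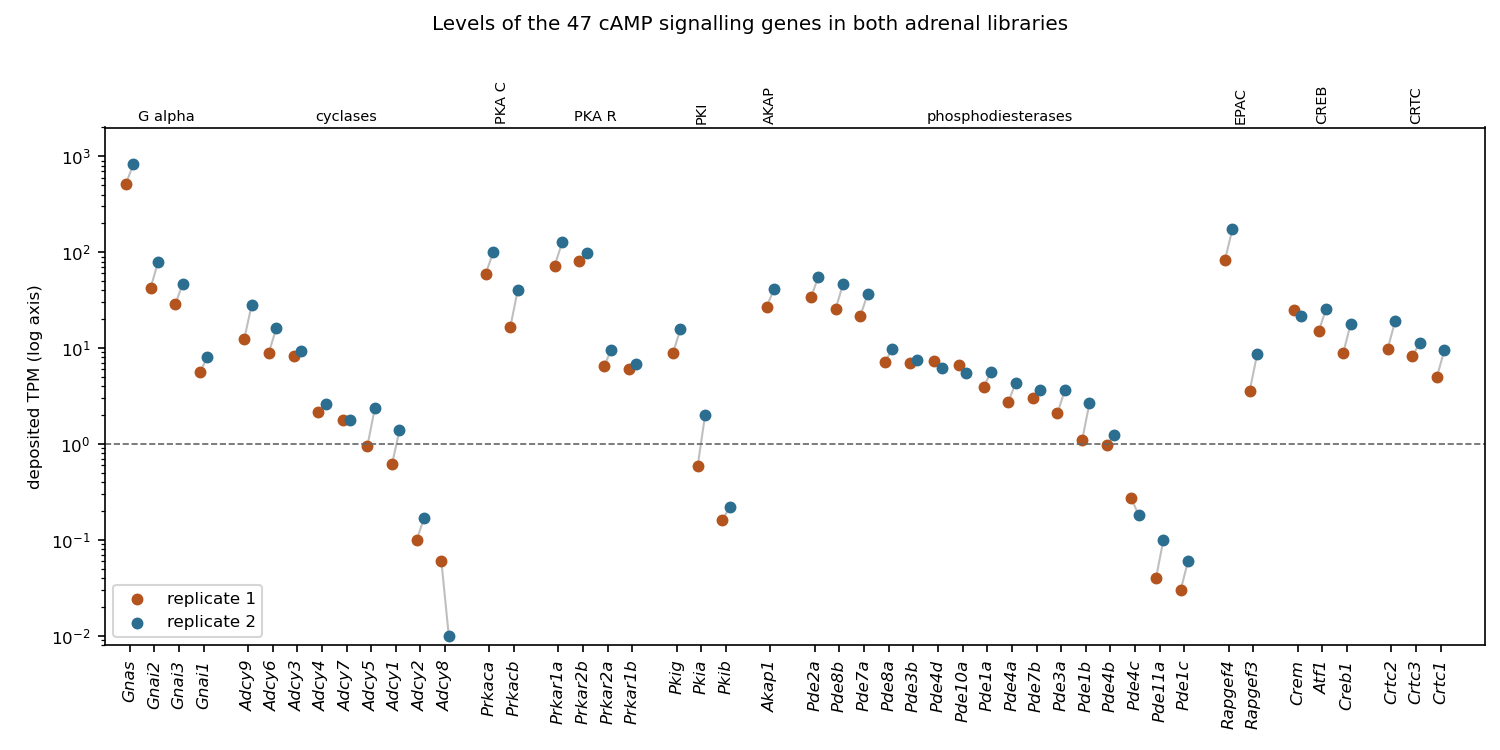
Deposited TPM (log axis) of the 47 genes by family, with replicate 1 at the left of each pair and replicate 2 at the right, and a dashed line at 1 TPM. Gnas stands highest at 519 and 823 TPM, and 6 genes lie under the line in both libraries.

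Gnas, which encodes the stimulatory α subunit, was the most abundant member. It had 519 TPM in replicate 1 and 823 TPM in replicate 2 (671 ± 215, SD, n = 2). Its share was 87.1% of the TPM of the 4 α subunits in replicate 1 and 86.1% in replicate 2. Of the inhibitory subunits, Gnai2 had 42.5 and 78.3 TPM and Gnai3 had 28.5 and 46.9 TPM. Gnai1 was lowest, at 5.59 and 8.04 TPM. The order Gnas, Gnai2, Gnai3, Gnai1 was the same in both libraries, and no neighbouring share overlapped. Gnas exceeded the 3 inhibitory genes together 6.77-fold in replicate 1 and 6.17-fold in replicate 2. Orders between genes are given without a p, since an exact permutation test of 2 values against 2 cannot go below 0.333 (two-sided).

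The Gnas locus on chromosome 2 (174284320 to 174346744, plus strand, mm10) is imprinted and has several alternative first exons, of which the Gs-alpha exon gives the signalling protein, and the Nesp and XL exons give other or longer proteins. Its 24 annotated transcripts were sorted by the position of their first exon. The 3 long Gs-alpha transcripts differ where exon 2 joins exon 4, and this stretch is shown because the short and long forms of the protein are set there. It covers 15 bases on each side, within chr2:174334270-174341667 on the plus strand, and was read from the GENCODE M21 transcripts. Capitals mark exon 3 in Gnas-208 and the extra first bases of exon 4 in Gnas-207.
Gnas-208: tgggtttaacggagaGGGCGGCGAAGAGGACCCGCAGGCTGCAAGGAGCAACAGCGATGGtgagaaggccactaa
Gnas-207: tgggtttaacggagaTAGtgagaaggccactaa
Gnas-206: tgggtttaacggagatgagaaggccactaa
Exon 3 is 45 bases long (chr2:174336747-174336791), and the extra stretch at the start of exon 4 is 3 bases long (chr2:174341650-174341652).

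The Gs-alpha first exon accounted for nearly all Gnas RNA. Its 4 transcripts held 94.3% of Gnas TPM in replicate 1 and 93.2% in replicate 2, from 12865 and 39116 expected counts. The Nesp class, set by start position and named for a secretory granule protein, held 2.36% and 4.00%. Of this, 0% and 1.36% of Gnas TPM lay on Gnas-214, with 75 annotated coding bases beside 759 in Gnas-211. XL transcripts held 0.235% and 0.224%. The exon 1A class, 6 transcripts of which Gnas-202 alone is annotated as protein-coding, held 1.82% and 1.22%, and transcripts that start further inside held 1.30% and 1.33%. The Gs-alpha class led in both libraries and both quantifications, but its size depended on the quantification. In the second transcript table it held 82.8% in replicate 1 and 79.6% in replicate 2, and the exon 1A class held 14.2% and 17.0%. Most of that difference lay on Gnas-218, a processed transcript with 8.31% and 11.9% of Gnas TPM in the second table and 0% and 0.277% in the first.

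Of the 3 long Gs-alpha transcripts, Gnas-208, with exon 3, held 173 TPM in replicate 1 and 328 TPM in replicate 2. Gnas-206, without exon 3, held 211 and 272 TPM, and Gnas-207 held 96.7 and 165 TPM. The share with exon 3 was 35.9% in replicate 1 and 42.9% in replicate 2 (39.4 ± 4.90, SD, n = 2), and the second table gave 37.0% and 41.1%. Both quantifications thus placed the form without exon 3 above the form with it in both libraries. They did not place the 3 extra bases alike: among transcripts without exon 3, Gnas-207 held 31.4% and 37.7% in the first table, and 68.7% and 74.5% in the second. Of the other transcripts that reached 1% of Gnas TPM in any library and table, Gnas-211, of the Nesp class, had 10.7 TPM in replicate 1 and 20.2 TPM in replicate 2. Gnas-214 had 0 and 11.2 TPM, and Gnas-205 had 8.21 and 2.55 TPM. The exon 1A transcripts Gnas-212, Gnas-217, Gnas-202 and Gnas-218 each stayed at or below 3.50 TPM in the first table and reached between 12.0 and 184 TPM in the second.

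**Figure D2:**
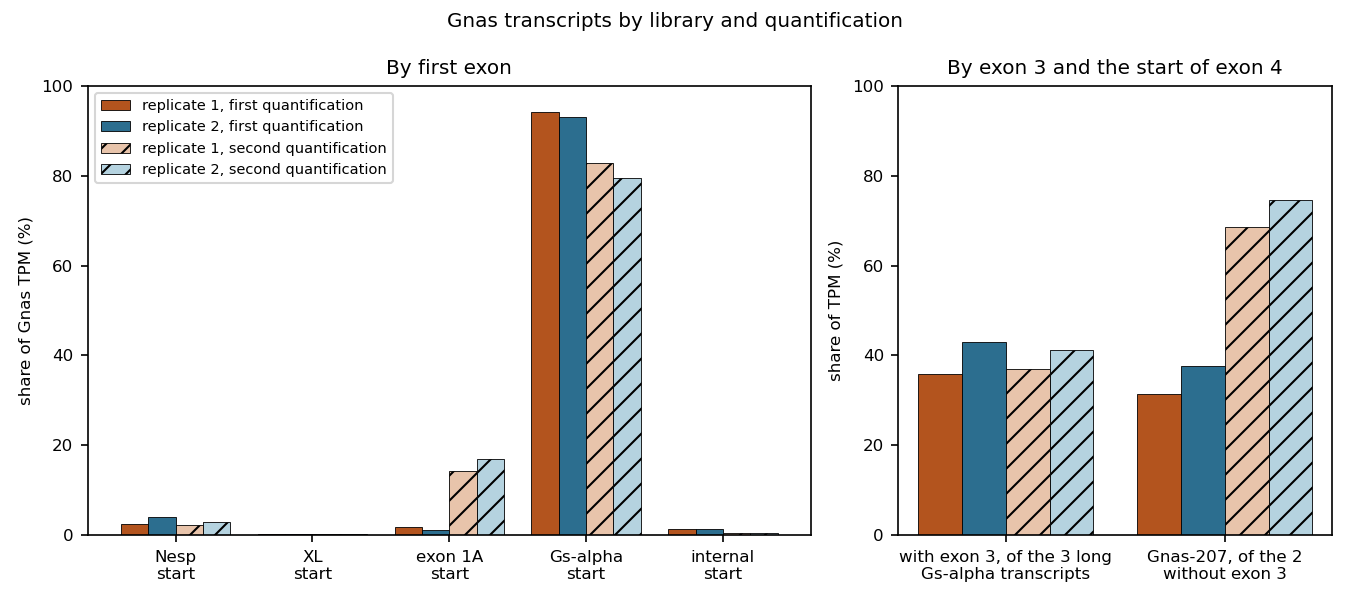
Share of Gnas TPM (%) by first exon (left), and shares (%) by exon 3 and by the first bases of exon 4 (right), for each library in the first and second quantification. The Gs-alpha class holds 79.6% to 94.3%, and the exon 3 share stays between 35.9% and 42.9%, while the Gnas-207 share differs between the quantifications.

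Promoter windows are shown for 3 of the Gnas starts, Gs-alpha, exon 1A and Nesp, and for Prkar1a, and the XL and internal starts are not shown. Each runs from 250 bases before to 50 bases after the annotated start, 5′ to 3′ on the plus strand, as given by RefSeq on GRCm38.p6. Capitals mark the cAMP response element TGACGTCA, which reads the same on both strands, and its half-site TGACG. They also mark the reverse complement of the half-site, CGTCA, and the GC box GGGCGG. The reverse complement of the GC box, CCGCCC, is marked too, and the half-site lies within the full element.
Gnas Gs-alpha promoter, chr2:174329756-174330055: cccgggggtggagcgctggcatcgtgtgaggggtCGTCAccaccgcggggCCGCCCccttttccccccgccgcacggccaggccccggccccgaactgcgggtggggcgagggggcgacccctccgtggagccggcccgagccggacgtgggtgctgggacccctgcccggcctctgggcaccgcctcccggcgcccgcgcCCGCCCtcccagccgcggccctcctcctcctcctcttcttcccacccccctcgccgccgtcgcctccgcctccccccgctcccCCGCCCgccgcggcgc
Gnas exon 1A promoter, chr2:174327518-174327817: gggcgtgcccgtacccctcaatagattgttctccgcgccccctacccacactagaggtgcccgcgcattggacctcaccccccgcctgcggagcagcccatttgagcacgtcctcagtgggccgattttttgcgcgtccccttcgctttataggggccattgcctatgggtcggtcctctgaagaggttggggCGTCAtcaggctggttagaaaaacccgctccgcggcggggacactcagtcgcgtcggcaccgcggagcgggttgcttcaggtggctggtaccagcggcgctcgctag
Gnas Nesp promoter, chr2:174284070-174284369: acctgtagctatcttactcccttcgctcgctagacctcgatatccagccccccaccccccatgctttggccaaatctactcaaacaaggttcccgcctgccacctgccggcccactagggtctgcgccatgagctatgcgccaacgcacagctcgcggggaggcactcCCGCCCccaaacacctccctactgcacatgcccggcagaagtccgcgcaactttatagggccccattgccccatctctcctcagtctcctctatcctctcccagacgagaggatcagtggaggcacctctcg
Prkar1a promoter, chr11:109650699-109650998: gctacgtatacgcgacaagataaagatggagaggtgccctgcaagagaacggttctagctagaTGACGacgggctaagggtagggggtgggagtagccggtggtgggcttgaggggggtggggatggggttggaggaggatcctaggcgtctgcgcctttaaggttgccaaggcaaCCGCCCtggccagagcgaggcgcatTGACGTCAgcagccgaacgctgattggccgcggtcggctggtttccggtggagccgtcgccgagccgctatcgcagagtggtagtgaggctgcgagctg
The Gs-alpha window held 3 GC boxes and 1 half-site. The exon 1A and Nesp windows each held 1 TATAAA on either strand, with 0 and 1 GC boxes.

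Among the members with a promoter in the table, 38 of 47, Prkar1a alone had the full element in a window. It begins 49 bases before the start. The full element was found for 2.63% of these members and for 2.03% of all 27025 genes with a promoter. The half-site was found for 18 of the 38 genes, 47.4%, beside 23.0% of all genes. GC boxes were found for 28 genes, 73.7%, beside 38.2% of all genes, and TATAAA or TTTATA for 4 genes, 10.5%, beside 15.7%. Counted over single windows, since members had more starts per gene, the half-site was in 26.5% of 83 member windows and 20.8% of 32851 windows in all, and the GC box in 48.2% and 35.7%. A match is a description of letters and not a site of binding.

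Adenylyl cyclases were far less abundant than Gnas. Adcy9, a broadly expressed cyclase with little response to forskolin, led with 12.4 TPM in replicate 1 and 28.2 TPM in replicate 2 (20.3 ± 11.1, SD, n = 2). Adcy6, which calcium inhibits, followed with 8.97 and 16.1 TPM, and Adcy3, which calcium and calmodulin stimulate, had 8.30 and 9.33 TPM. Over all transcripts these 3 genes kept this order in both libraries, and their shares of cyclase TPM did not overlap. Adcy9 held 35.2% in replicate 1 and 45.5% in replicate 2, Adcy6 held 25.4% and 26.0%, and Adcy3 held 23.5% and 15.1%. In the second quantification Adcy9 led in both libraries too, with 32.2% and 42.9%. On protein-coding transcripts of the first, Adcy6 and Adcy3 each held 18.9% in replicate 1. In replicate 2 they held 21.3% and 13.9%.

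The other 6 cyclases were low. Adcy4 and Adcy7, which G protein βγ subunits stimulate, lay between 1.77 and 2.63 TPM in both libraries. Adcy5, a relative of Adcy6, had 0.960 TPM in replicate 1 and 2.36 TPM in replicate 2. Adcy1, a calcium-stimulated form best known from brain, had 0.620 and 1.39 TPM. In the first quantification Adcy4 ranked above Adcy7 and Adcy5 in both libraries, though its share range overlapped that of Adcy7. Adcy7 and Adcy5 changed places between the libraries. In the second quantification of replicate 1, Adcy4, with 5.12%, lay below Adcy7, with 5.25%, and Adcy5, with 5.64%. Adcy2 had 0.100 and 0.170 TPM from 7 and 22 counts. Adcy8 had 0.0600 and 0.0100 TPM from 4 and 1 counts, too few to rank or to compare between libraries. By mode of control, Adcy9 alone held the shares given above, the calcium-inhibited pair held 28.1% and 29.8%, the calcium-stimulated genes 25.4% and 17.3%, and the βγ-stimulated genes 11.4% and 7.38%. In the second quantification of replicate 1 the calcium-inhibited pair, with 33.5%, stood above Adcy9, with 32.2%.

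Among phosphodiesterases 3 genes stood above the others. Pde2a, a dual-specificity enzyme that cGMP stimulates, had 33.8 TPM in replicate 1 and 55.8 TPM in replicate 2 (44.8 ± 15.6, SD, n = 2). Pde8b, a high-affinity cAMP-specific enzyme known to restrain steroid output in the mouse adrenal, had 25.6 and 46.7 TPM. Pde7a, another cAMP-specific enzyme, had 21.6 and 36.7 TPM. The fourth in mean level, Pde8a, had 7.15 and 9.85 TPM, so over all transcripts a step separated the leading 3 from the rest in both libraries. On protein-coding transcripts the third place was less clear. Pde7a held 11.0% of the family in replicate 1 in both quantifications, beside 8.93% for Pde4d in the first and 12.8% for Pde10a in the second. The order within the leading 3 depended on the quantification and on which transcripts were counted. Pde2a exceeded Pde8b 1.32-fold in replicate 1 and 1.19-fold in replicate 2, but the ratio was 0.946 and 0.789 in the second quantification. On protein-coding transcripts the ratio was 0.649 and 0.423 in the first and 1.06 and 0.736 in the second. Over all transcripts of the second, Pde7a led with 23.4% of the family in replicate 1 and 25.8% in replicate 2. Pde8b held 19.0% and 23.7% there, and Pde2a held 17.9% and 18.7%.

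The middle of the family was crowded. Pde3b, an enzyme that cGMP inhibits, had 6.95 TPM in replicate 1 and 7.53 TPM in replicate 2. Pde4d, of the rolipram-sensitive cAMP-specific group, had 7.26 and 6.22 TPM, and the dual-specificity Pde10a had 6.69 and 5.53 TPM. The shares of Pde8a, Pde3b, Pde4d, Pde10a and Pde1a overlapped from neighbour to neighbour, so their order was not settled. Pde1a, Pde4a, Pde7b, Pde3a and Pde1b ranged from 1.09 to 3.91 TPM in replicate 1 and from 2.68 to 5.62 TPM in replicate 2.

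Of the remaining 4 phosphodiesterases, Pde4b lay on either side of the detection level, with 0.980 TPM in replicate 1 and 1.23 TPM in replicate 2. In coding TPM it had 4.74 in replicate 1 and 3.64 in replicate 2, the other direction. The other 3 were below the detection level in both libraries. Pde4c had 0.270 and 0.180 TPM from 13 and 17 counts. Pde11a, whose human counterpart is linked to adrenal hyperplasia, had 0.0400 and 0.100 TPM from 1 and 8 counts, and the calcium-activated Pde1c had 0.0300 and 0.0600 TPM from 2 and 7 counts. As groups, the cAMP-specific PDE4, PDE7 and PDE8 enzymes together held 55.7% of phosphodiesterase TPM in replicate 1 and 57.4% in replicate 2. The PDE8 pair held 26.6% and 29.8%, the PDE7 pair 20.0% and 21.3%, and the 4 PDE4 genes 9.11% and 6.29%. On protein-coding transcripts of the first quantification, PDE7 and PDE4 lay closer. There the PDE8 pair held 34.3% and 43.1%, the PDE7 pair 14.4% and 15.2%, and the PDE4 genes 12.9% and 9.32%.

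**Figure D3:**
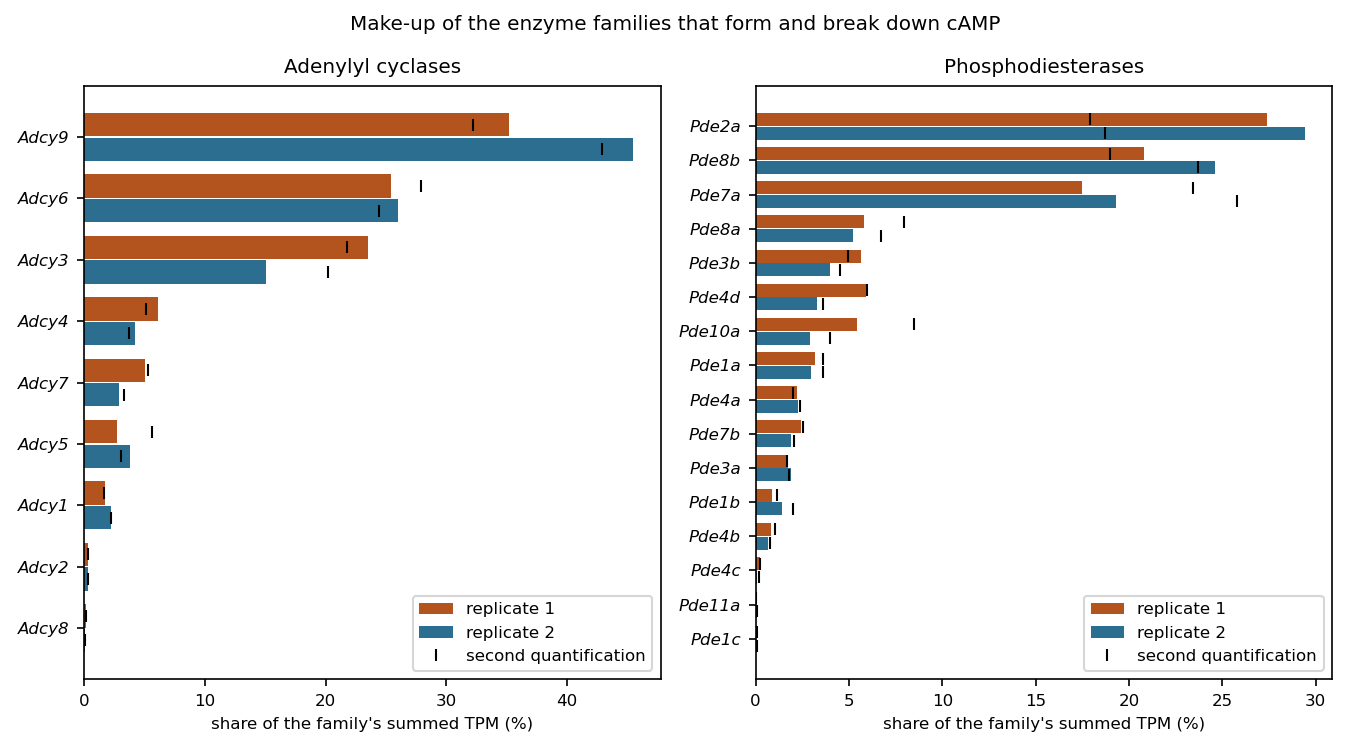
Share (%) of the summed TPM of the 9 cyclases (left) and 16 phosphodiesterases (right) on each gene, replicate 1 above replicate 2, with ticks for the second quantification. Adcy9 leads with 35.2% and 45.5%, and Pde2a, Pde8b and Pde7a stand above the other phosphodiesterases in both quantifications of all transcripts.

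PKA subunit genes were abundant, and the catalytic side was led by Prkaca. This gene, on chromosome 8 (83972993 to 83996443, mm10), had 59.7 TPM in replicate 1 and 99.4 TPM in replicate 2 (79.6 ± 28.1, SD, n = 2). Prkacb, the second catalytic gene, had 16.6 and 40.7 TPM. Prkaca exceeded it 3.60-fold in replicate 1 and 2.44-fold in replicate 2, and 2.42-fold and 1.90-fold in the second quantification.

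Prkar1a, which encodes the type I regulatory subunit altered in human Carney complex, had 72.4 TPM in replicate 1 and 127 TPM in replicate 2 (99.8 ± 38.7, SD, n = 2). Prkar2b, a type II subunit that anchoring proteins hold at membranes, had 81.2 and 97.1 TPM (89.1 ± 11.2). Their order changed between the libraries, with Prkar1a at 0.892 times Prkar2b in replicate 1 and 1.31 times in replicate 2. The second quantification gave the same change of order, 0.774 and 1.15 times. Prkar2a and Prkar1b were minor, each under 10 TPM in both libraries. Type I subunits held 47.2% of regulatory TPM in replicate 1 and 55.7% in replicate 2, so neither type led in both libraries. Regulatory RNA exceeded catalytic RNA 2.18-fold and 1.72-fold.

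PKA inhibitors, small proteins that bind free catalytic subunits, were represented mainly by Pkig, which had 8.93 and 15.7 TPM in replicate 1 and replicate 2. Pkia had 0.590 and 1.99 TPM, and Pkib had 0.160 and 0.220 TPM from 3 and 4 counts. Pkig held 92.3% and 87.7% of the inhibitor TPM. Catalytic RNA exceeded inhibitor RNA 7.88-fold in replicate 1 and 7.81-fold in replicate 2, and 5.19-fold and 5.05-fold in the second quantification. Akap1, which tethers PKA to mitochondria, had 27.1 and 41.4 TPM (34.3 ± 10.1, SD, n = 2).

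Rapgef4, which encodes EPAC2, had the second-highest mean of all members, 83.9 TPM in replicate 1 and 174 TPM in replicate 2 (129 ± 63.5, SD, n = 2). Rapgef3, which encodes EPAC1, had 3.56 and 8.58 TPM. Most Rapgef4 TPM lay on transcripts with no annotated coding sequence. The 3 protein-coding Rapgef4 transcripts held 8.89% of its TPM in replicate 1 and 8.21% in replicate 2, which is 7.46 and 14.3 TPM. They held 23.1% and 17.9% of its expected counts, 494 and 1803 reads. In the second quantification they held 39.3% and 43.9% of TPM. In the first quantification the ratio of Rapgef4 to Rapgef3 was 23.6 and 20.2 on all transcripts and 3.59 and 4.29 on protein-coding ones. In the second it was 12.4 and 19.3 on all transcripts and 12.8 and 23.7 on protein-coding ones. Rapgef4 thus led in each case and by different amounts.

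In the first table, a pair of processed transcripts carried most of the rest. Rapgef4-210 begins inside the gene (chr2:72179693-72257472, mm10), has 22 exons, and took 1107 counts in replicate 1 and 6374 counts in replicate 2, 51.8% and 63.3% of the gene. Of its bases, 93.6% lie in exons of the protein-coding transcripts, sequence that it shares with them. Rapgef4-204, the leading transcript by TPM in the first table, is 666 bases long with 92.8% of its bases in such exons. It had 23.0 and 59.3 TPM. In the second quantification Rapgef4-204 held 20.9% and 15.9% of Rapgef4 TPM, and Rapgef4-210 held 9.20% and 12.3%. Of the coding transcripts, Rapgef4-202 starts at 71981240 and Rapgef4-201 starts downstream at 72054604. Rapgef4-201 had 3.61 TPM in replicate 1 and 8.63 TPM in replicate 2. Rapgef4-202 had 3.85 and 5.44 TPM. The second quantification gave Rapgef4-201 28.2% and 37.5% of Rapgef4 TPM and Rapgef4-202 11.1% and 3.13%, so the downstream start led there in both libraries, and in the first table in replicate 2 alone.

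Among the CREB-family factors, Crem, whose products include activators and the inducible repressor ICER, had 24.8 TPM in replicate 1 and 21.8 TPM in replicate 2 (23.3 ± 2.16, SD, n = 2). Atf1 had 14.9 and 25.7 TPM, and Creb1, the classical PKA substrate, had 8.94 and 17.9 TPM. Crem ranked above Atf1 in replicate 1 and below it in replicate 2, and Creb1 was lowest in both. The CRTC coactivators, which enter the nucleus when cAMP blocks the SIK kinases, were all detected. Crtc2 had 9.82 and 19.0 TPM, Crtc3 had 8.26 and 11.2 TPM, and Crtc1 had 5.02 and 9.50 TPM. On protein-coding transcripts of the first quantification, Crtc3 led with 5.63 and 9.61 TPM, and Crtc2 had 4.28 and 6.06 TPM. On those of the second, Crtc2 held 40.5% and 38.7% of CRTC TPM, and Crtc3 held 37.6% and 39.0%. Over all transcripts of the second, Crtc3 led in replicate 1, with 40.6% beside 34.8% for Crtc2. In replicate 2 Crtc2 led there, with 44.0% beside 34.1% for Crtc3.

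As total RNA holds unspliced and decay-type transcripts, the share of each detected gene on protein-coding transcripts was computed. Its median over the 37 detected members was 88.5% in replicate 1 and 88.7% in replicate 2, beside 88.1% and 88.6% over all 11339 detected coding genes. In the first quantification it was above 90% in both libraries for 14 members, among them Prkaca, Prkar1a, Prkar2b and Gnas. The second gave 87.2% and 84.6% for Gnas. In the first, 4 members were under 50% in both: Rapgef4, Pde2a with 38.9% and 27.9%, Pde7a with 39.6% and 35.7%, and Crtc2 with 43.6% and 31.8%. The shares of all detected genes past these lines are not given here, so the counts describe the members alone. The leading Pde2a transcript, Pde2a-209, is of the nonsense-mediated decay type and held 43.4% and 56.1%. The second quantification gave 14.3% and 12.7% for it, and 72.1% and 71.0% for all protein-coding Pde2a transcripts. There 4 members were also under 50% in both libraries, of which Rapgef4 and Pde7a were under it in both quantifications. Both quantifications named the same leading transcript for 22 of the 37 genes.

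**Figure D4:**
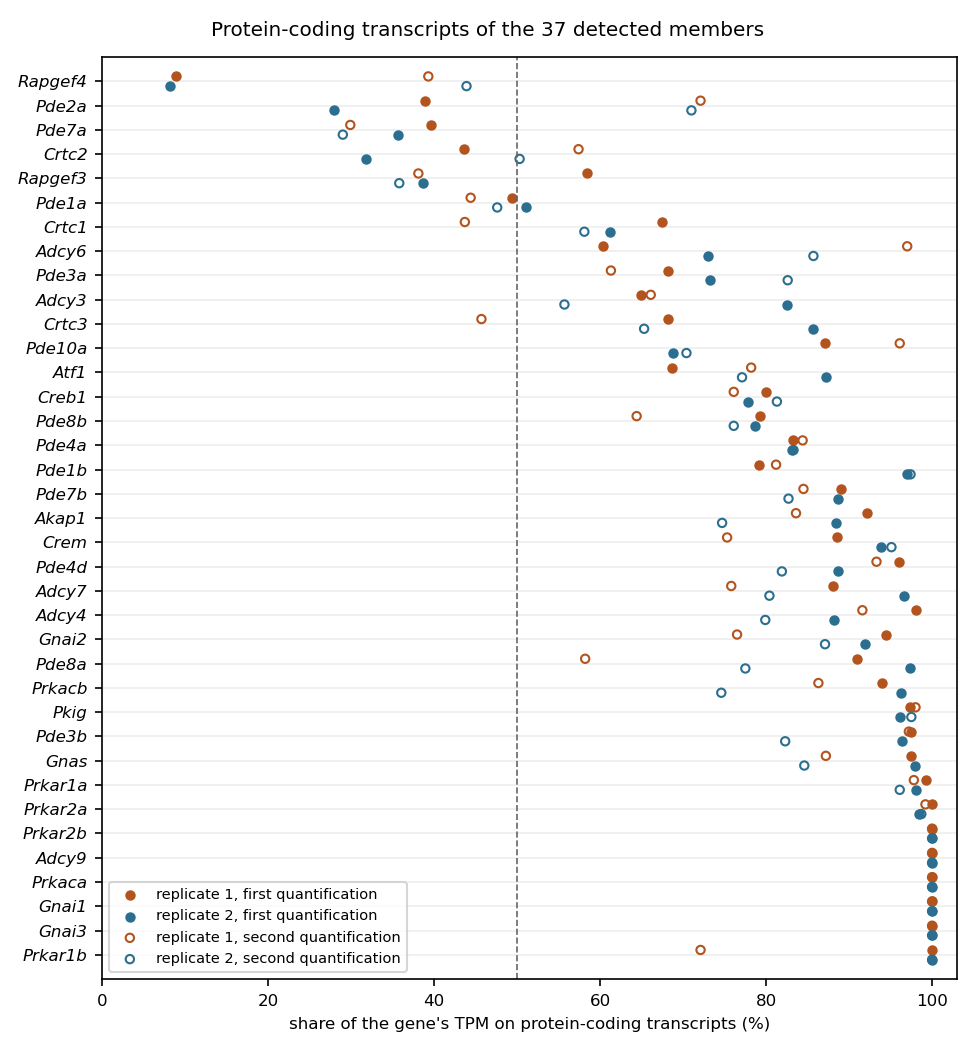
Share (%) of each detected member's TPM on protein-coding transcripts, in the first (filled) and second (open) quantification, with a dashed line at 50%. Rapgef4 and Pde7a lie left of the line in every case, while Pde2a crosses it between the quantifications.

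The libraries were then set against each other gene by gene. Ratios are log2 of replicate 1 over replicate 2 from TMM-scaled expected counts, a scaling that removes the difference in depth and RNA classes for the typical gene, and 39 members had a mean count of at least 100. Their median was 0.02, and the median of all 11542 genes at that count was -0.03. At 2-fold, 1 member differed, beside 1.32% of all genes. It was higher in replicate 1, beside 0.927% of all genes, and 0 members were lower, beside 0.390%. An exact conditional binomial test, which holds counting error only, gave an adjusted p under 0.05 (Benjamini-Hochberg, 11542 genes) for 15 members, beside 33.5% of all genes. Of these, 10 were higher in replicate 1, beside 15.9% of all genes, and 5 were lower, beside 17.6%. This split depended on the scaling: 8 were higher and 18 lower on spike-in counts, and 1 was higher and 35 lower on total counts. Of all genes, 46.4% passed on spike-in counts and 98.4% on total counts. Directions given here for members and for the pathway lists are those under TMM. Such a call says that these libraries differ by more than counting error, and not that mice differ.

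Pde10a, an enzyme best known from the striatum, on chromosome 17 (8525372 to 8986648, mm10), was the 1 member past 2-fold. It had 564 counts in replicate 1 and 765 counts in replicate 2, or 32.3 and 16.3 coding TPM. The fold was 2.37 (95% counting interval 2.12 to 2.64, adjusted exact binomial p = 5.1e-49), and the second quantification gave a log2 ratio of 1.16 beside 1.24. Pde4d lay just inside the line, with 355 and 571 counts, a fold of 1.99 (1.74 to 2.28) and a log2 ratio of 1.02 in the second quantification. Other members higher in replicate 1, named after their values were seen, followed. Crem was 1.80-fold higher (1.58 to 2.04), Pde3b 1.55-fold (1.42 to 1.70), Adcy7 1.55-fold (1.27 to 1.89), and Prkar2b 1.39-fold (1.34 to 1.45). Prkar1b, Adcy3, Akap1 and Gnas also passed the test, with folds from 1.05 to 1.32. All 6 liver markers, 5 of 6 fat markers and all 4 erythroid markers (7115 and 5900 coding TPM summed) were higher in the same library as these genes, while the fat marker Lep was lower, and their part in the differences was not tested. The 8 members at a mean count under 100 were not tested.

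Lower in replicate 1 were Rapgef4, with 0.681 times the level of replicate 2 (95% counting interval 0.650 to 0.714, adjusted exact binomial p = 3.5e-61), and Adcy9, with 0.738 times (0.686 to 0.792, adjusted p = 1.9e-16). Adcy1, Prkacb and Pde8b also passed, with folds from 0.764 to 0.895. The other 24 tested members did not pass. Among them, Prkaca had a log2 ratio of 0.00 from 2119 and 6793 counts, and Prkar1a had -0.05 from 3612 and 12010 counts. All 3 CRTC genes and all 3 inhibitory α subunits were in this group. For 2 members an overlapping gene on the other strand had over 10% of their counts, Cenpo for Adcy3 and Gm6225 for Crem, and how the counting used strand is not given in the sources used here.

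**Figure D5:**
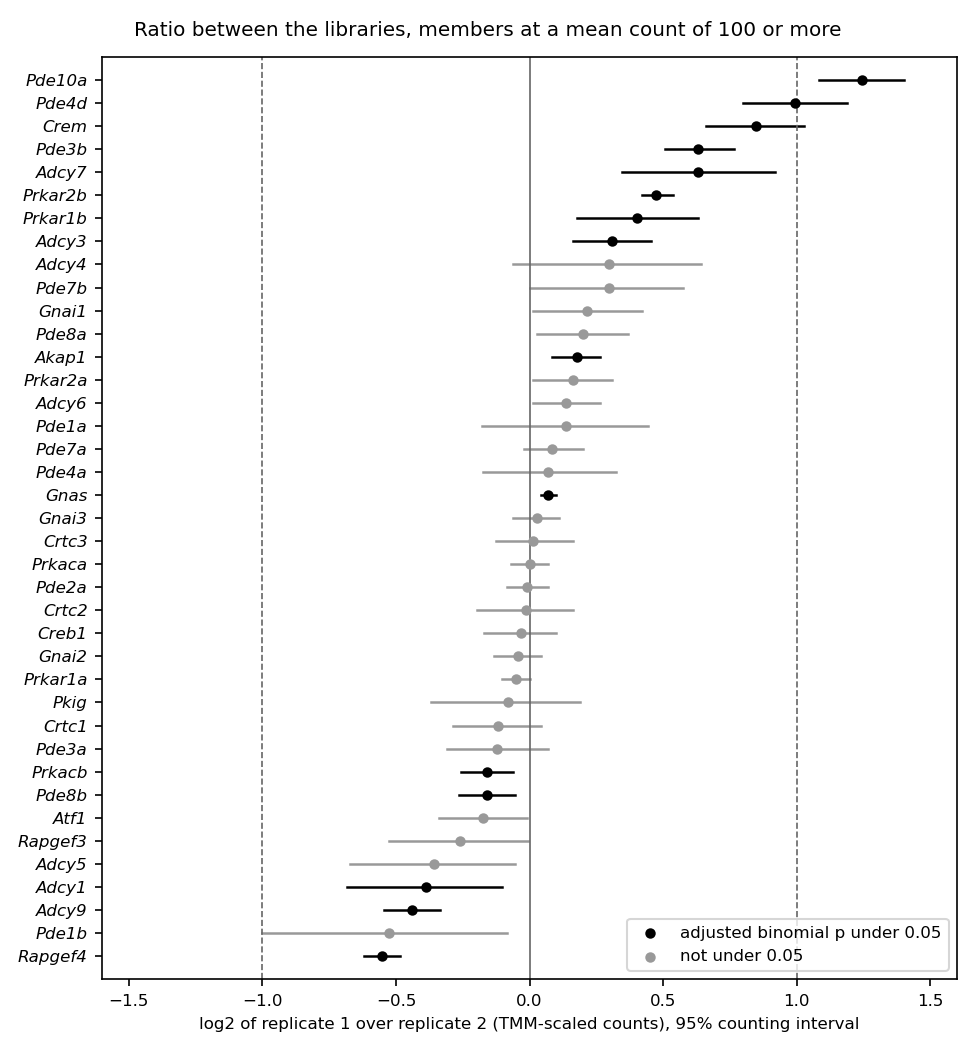
Log2 ratio of replicate 1 over replicate 2 with its 95% counting interval for the 39 members at a mean count of at least 100, black where the adjusted binomial p was under 0.05, with dashed lines at 2-fold. Pde10a lies past the line at a fold of 2.37, and Rapgef4 is lowest at 0.681.

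The rest of the pathway was described from lists of its other genes. Of 33 receptors that couple to the stimulatory subunit, 6 were detected in both libraries, led by Mc2r, the corticotropin receptor, with 55.4 and 96.1 TPM in replicate 1 and replicate 2. The next, Adrb3, a β-adrenergic receptor of fat, had 9.57 and 10.4 TPM. Of the 6 receptors tested, 1 was higher and 2 were lower in replicate 1 by the adjusted binomial test. Over all 11542 genes tested, 15.9% were higher and 17.6% were lower, and these shares apply beside the counts of each list below. Genes other than the leading 2 of each list were named after their values were seen. The higher receptor was Adrb3, and the lower ones included Adcyap1r1, for the peptide PACAP. Of 17 other G protein subunits, 15 were detected, led by Gnb2 with 122 and 224 TPM and Gnb1 with 65.0 and 129 TPM, both β subunits. Of the 15 tested, Gng5 was higher in replicate 1, and Gnaq, Gna12, Gnb2, Gnb4 and Gng2 were lower, 5 in all. Of 14 other anchoring proteins, 11 were detected, led by Akap8l with 34.3 and 63.3 TPM and Akap2 with 27.8 and 52.0 TPM, and of 12 tested 2 were higher and 2 were lower. The higher ones were Akap13 and Ezr, and the lower ones Akap9 and Akap6, of which Akap6, at 39 and 298 counts, was past 2-fold. Akap1, at 27.1 and 41.4 TPM, ranked below Akap8l and Akap2 in both libraries.

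Of 10 other genes named as phosphodiesterases or their partners, 4 were detected. Pde5a, a cGMP enzyme and the 1 of them that passed the test, had 10.4 TPM in replicate 1 and 9.97 TPM in replicate 2. Pde6d, a carrier of prenylated proteins, had 6.28 and 12.2 TPM. Of 9 kinases and coactivators linked to CREB, 8 were detected, led by Camk2d with 19.8 and 34.7 TPM and Mark2 with 18.0 and 31.6 TPM. Of the 8 tested, Sik1, Sik2 and Crebbp were higher in replicate 1 and Ep300, Camk1 and Camk2d were lower. Sik1, itself a CREB target, was past 2-fold, with 412 and 630 counts. All 15 cortex genes known to respond to cAMP were detected, led by Hsd3b1 with 2993 and 5757 TPM and Star with 2476 and 4508 TPM. Of these, 5 were higher in replicate 1, among them Star, Scarb1, Fdx1 and Mrap, beside 15.9% of all genes tested. Cyp21a1, Hsd3b1, Nr4a1, Nr4a2 and Nr5a1 were lower, beside 17.6%, and 5 did not pass. At the high counts of the leading 2, small folds passed, 1.15 for Star and 0.870 for Hsd3b1. None of the 15 was 2-fold apart, beside 1.32% of all genes.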

How the data were processed

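Total RNA of the adrenal gland was measured in 2 libraries of 1 group. A gene table and a transcript table share 1 quantification, called the first. Another transcript table, summed per gene, holds the second. Per the notes deposited beside the files, both used genome build mm10 and the GENCODE M21 annotation. Which program made them is not stated here. Expected counts, as deposited, are estimated read numbers and were rounded for TMM and for tests. The deposited TPM values are per length and sum to a fixed total over all features, spike-ins included. Each transcript's percent of its gene was deposited as well and was recomputed here from TPM. The bounds of transcript TPM are also the authors'.

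Symbols came from the target identifiers of the second transcript table. Ratios are log2 of replicate 1 over replicate 2, with a prior of 1 count, after TMM scaling in edgeR 4.0.16 (R 4.3.3). An exact two-sided conditional binomial test with Benjamini-Hochberg adjustment covered 11542 genes at a mean count of at least 100, and folds have 95% Clopper-Pearson intervals. Both cover counting error only, since reads here carry no molecular identifiers and copies of 1 molecule count separately. With 1 group there is no test between groups. Ratios and tests were tested on simulated data (Python 3.11.15, numpy 2.4.6, scipy 1.17.1, pandas 2.3.3), and matplotlib 3.10.9 drew the figures. Alternatives were DESeq2 1.42.0 size factors, total counts, spike-in counts, the second quantification, protein-coding transcripts alone, other thresholds, and each library alone.

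Named were the leading 2 genes of each family by mean TPM (3 for cyclases and phosphodiesterases), every member under 1 TPM in either library or 2-fold apart, every Gnas transcript with 1% or more of Gnas TPM, and the leading 2 genes of each pathway list. The members and all lists were chosen with earlier results of these data known. Promoter windows came from RefSeq, and 9 members had none in the table used. Values of some genes on the pathway lists are not reported here.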

Additional observations from a re-analysis of the deposited data

How the results depend on the processing

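Replicate 1 had 36.3% of its counts on coding genes, so low members rest on few reads there, and an order between members with overlapping shares was not settled. No paired analysis was possible because there is 1 group. Single genes and left-out libraries aside, results recomputed under an alternative stayed within the set limits in 27 cases, moved in 17 and changed sign in 2. The count of members 2-fold apart, 1 under TMM, was 11 on total counts, 2 in the second quantification, 2 at a minimum mean count of 10 and 5 with no minimum. The shares of all genes 2-fold apart there were 36.1%, 1.22%, 5.56% and 19.2%, beside 1.32% under TMM. The count passing the binomial test, 15 under TMM, was 36 on total counts, 26 on spike-in counts and 21 in the second quantification. Of all genes, 98.4%, 46.4% and 35.5% passed there, beside 33.5% under TMM. The median log2 ratio of the members, 0.02, was -0.86 on total counts, where the median of all genes was -0.91, and -0.11 on spike-in counts, where that of all genes was -0.16. On each scale the members' median thus lay 0.05 above that of all genes. The log2 ratio of Pde10a, 1.24, stayed positive under each alternative run and was 0.36, less than 2-fold, on total counts.

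Genes that led their family by mean TPM in the first quantification had other mean shares in the second. These were 87.8% for Gnas beside 86.6%, 68.1% for Prkaca beside 74.6%, and 18.3% for Pde2a beside 28.4%. Rapgef4 had 93.8% beside 95.6%, and Crtc2 had 39.4% beside 45.2%. Pde2a did not lead in the second, where Pde7a held 23.4% in replicate 1 and 25.8% in replicate 2. On protein-coding transcripts of the first, the mean share was 15.6% for Pde2a, 79.7% for Rapgef4 and 30.2% for Crtc2. There Pde8b led with 25.9% and 34.2%, and Crtc3 led with 42.3% and 44.7%. The median share on protein-coding transcripts was 81.6% in the second quantification beside 88.6%, the exon 1A share of Gnas was 15.6% beside 1.52%, and the Gs-alpha share was 81.2% beside 93.8%. The cause of these differences was not tested. Leaving out 1 of 2 libraries returns the other library's own value, which cannot lie more than 1 SD from their mean, so it says nothing about stability. The alternatives for the exon 3 share and detection on protein-coding transcripts were added after the values were seen. DESeq2 size factors gave the same counts as TMM.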
